A study of Mus musculus with 42 samples.

Results

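The genes described here encode the non-canonical histones and the carriers that escort histones to DNA. They were chosen by name, and 9 of the 15747 complete rows of the RNA-seq table belong to them. The histone genes are H3f3a for H3.3, H2az1 and H2az2 (formerly H2afz and H2afv) for H2A.Z, H2ax (H2afx) for H2A.X, H2aj (H2afj) for H2A.J and H1f8 (H1foo) for the linker histone of the oocyte. The carriers are Asf1a, Asf1b and Nasp. All 9 passed the filter on low values. In at least 1 of the comparisons below 6 of them passed the test, where single comparisons called 0.0847% to 20.8% of all 10628 genes tested. The share of all genes called at least once was not computed, so this count is not a result about the 9 genes.

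The table came from 18 samples of mouse embryos in 9 groups of 2. Early 2-cell embryos were collected 34 h after hCG, the hormone that triggers ovulation, late 2-cell embryos at 48 h and 4-cell embryos at 58 h, all from ICR mice aged 6 to 8 weeks. The late 2-cell groups were an untreated control, FK866 (0.01 µM), FK866 with NMN (10 µM), TSA (10 nM) and Sirt1 knockdown, and the 4-cell groups were control, FK866 and FK866 with NMN. The labels call the early 2-cell and control embryos wild type and untreated, and the methods add 0.05% DMSO as the solvent of the controls. FK866 inhibits NAMPT, which makes NMN, the precursor of NAD, so added NMN bypasses the block. TSA inhibits the class I and II histone deacetylases, while SIRT1 is a deacetylase that consumes NAD. The knockdown combined siRNA, a SIRT1 antibody and Trim21 mRNA injected into zygotes, and its stated injection control has no column of its own. Each library pooled 3 embryos, and nothing states that the libraries of a group came from separate females, so p-values measure the spread between these libraries.

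Nucleosomes assembled at replication use canonical histones, whose genes are transcribed in S phase and whose transcripts end in a stem-loop. Variants are made throughout the cell cycle from genes whose transcripts are polyadenylated in most cases, and they mark particular places: H3.3 enters transcribed genes and, soon after fertilization, the paternal genome, H2A.Z flanks start sites, H2A.X carries the phosphate that marks broken DNA, and H1FOO fills the linker of oocyte and zygote chromatin until somatic linker histones take over. ASF1A and ASF1B hand H3-H4 dimers to the assembly factors CAF-1 and HIRA, and NASP keeps the soluble pool of H3-H4 from being degraded.

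The promoters of the H2A.Z pair and of the ASF1 pair are printed because each pair holds a gene that passed between stages, both H2A.Z genes and, close to the threshold, Asf1a. RefSeq gave the window from 250 bases before to 50 after the start for 8 of the 9 genes on GRCm38.p6. Its start can lie inside the gene span given below, which comes from another annotation. Most of the Asf1a and Asf1b windows and all of the H3f3a window lie within that span. H2az1 lies at chr3:137864237-137864536 (plus strand), H2az2 at chr11:6444394-6444693 (minus strand), Asf1a at chr10:53596711-53597010 (plus strand) and Asf1b at chr8:83955444-83955743 (plus strand). Each is written 5′ to 3′ along its gene, and capitals mark CCAAT on either strand, so that ATTGG is CCAAT on the other strand.
H2az1: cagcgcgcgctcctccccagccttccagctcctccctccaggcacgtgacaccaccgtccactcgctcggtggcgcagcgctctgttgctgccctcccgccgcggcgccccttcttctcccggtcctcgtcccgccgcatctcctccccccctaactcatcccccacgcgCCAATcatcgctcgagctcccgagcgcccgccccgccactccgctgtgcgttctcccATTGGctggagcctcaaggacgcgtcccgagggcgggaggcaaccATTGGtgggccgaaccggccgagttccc
H2az2: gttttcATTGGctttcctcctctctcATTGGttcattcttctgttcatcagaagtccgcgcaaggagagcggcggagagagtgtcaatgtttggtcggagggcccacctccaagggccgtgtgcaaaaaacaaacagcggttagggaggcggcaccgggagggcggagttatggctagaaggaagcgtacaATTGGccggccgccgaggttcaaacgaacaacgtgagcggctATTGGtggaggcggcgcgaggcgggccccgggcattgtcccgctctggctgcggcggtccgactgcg
Asf1a: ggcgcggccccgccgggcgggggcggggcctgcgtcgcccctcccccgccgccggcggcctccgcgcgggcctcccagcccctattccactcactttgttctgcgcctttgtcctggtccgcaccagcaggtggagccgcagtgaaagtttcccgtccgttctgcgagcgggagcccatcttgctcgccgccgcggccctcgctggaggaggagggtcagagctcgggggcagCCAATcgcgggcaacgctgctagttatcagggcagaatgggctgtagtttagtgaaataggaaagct
Asf1b: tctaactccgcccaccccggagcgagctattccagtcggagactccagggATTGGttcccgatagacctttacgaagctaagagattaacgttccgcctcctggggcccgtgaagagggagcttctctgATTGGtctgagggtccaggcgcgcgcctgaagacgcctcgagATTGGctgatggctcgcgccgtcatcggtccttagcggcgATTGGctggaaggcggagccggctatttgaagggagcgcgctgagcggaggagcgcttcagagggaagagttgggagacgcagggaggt
CCAAT stood in all 8 windows, with 1 copy each in Asf1a and H3f3a and 4 each in H2az2 and Asf1b, against 37.4% of 32851 windows of the same length. The GC box GGGCGG stood in 6 of 8 (35.7% of all windows) and the E-box CACGTG in 1, H2az1 (7.15%). The TATA letters TATAAA (13.6%), GGATTA (7.06%) and the E2F letters TTTCGCGC or TTTGGCGC (0.813%) were in none of the 8. All were searched on both strands. GC content ran from 48.3% in Nasp to 74.0% in H3f3a. These are matches of letters, and binding was not measured here.

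The deposited values are FPKM, which scale reads to the length of the gene's exons and to the size of the library, in 1 column per group. Whole reads could be recovered from them, and they showed 2 libraries in 7 columns and 1 library in 2 columns, 16 in all, with totals from 3169677 to 10003481 reads. A names the library with more reads of a column and B the other. On 5 columns the header and the supplementary tables of the study name different groups. Of the values that the 4-cell tables list and the rows hold, 84 of 84 labelled control equalled the column headed late 2-cell TSA, 84 of 84 labelled FK866 equalled the column headed late 2-cell Sirt1, and 84 of 84 labelled NMN equalled the column headed 4-cell control. Directions over the late 2-cell control were those of the TSA list most often in the 1-library column headed 4-cell FK866 (1193 of 1193 genes), and those of the Sirt1 list in the 1-library column headed 4-cell FK866+NMN (769 of 817). Other columns, set against the same control, also matched often. The TSA list matched early 2-cell in 1086 genes and the column headed TSA in 541. The Sirt1 list matched late 2-cell FK866 in 699, early 2-cell in 682 and the column headed Sirt1 in 440. Sirt1 itself was at 86.6 and 66.2 FPKM in the late 2-cell control and at 32.4 and 73.1 in the column headed late 2-cell Sirt1. It was at 11.3 in the column headed 4-cell FK866+NMN, at 7.61 in the column headed 4-cell FK866 and at 13.5 and 6.18 in untreated early 2-cell embryos, so that its level does not single out a knockdown column. The late 2-cell control, FK866 and FK866+NMN columns held 117, 118 and 117 of 118 values listed under the same names. No table used here lists early 2-cell values, so that header was not checked. These 4 columns, called uncontested, come first below. The oocyte and cleavage embryo markers found in the table (9 of 10) were summed at 1294 to 3758 FPKM, most of it Dppa3 in the late 2-cell control (2058 of 2496 FPKM). All 9 were above 0 in each column, except Ooep at 0 in the column headed TSA. The 7 of 10 cumulus and granulosa cell markers were summed at 1.05 to 11.9 FPKM with 2 to 6 of them at 0, and the highest sum was in the column headed 4-cell FK866. The libraries A and B of the FK866+NMN column differed most, by a median of 2.70-fold over 4202 genes, against 1.28- to 1.53-fold in the other 2-library columns. In pooled embryos a lower value can mean fewer cells with the transcript or less of it per cell, which cannot be told apart here.

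The H2A.Z transcripts rose most. H2az1 (GRCm38 chromosome 3, 137864487 to 137866922) stood at 63.5 and 27.6 FPKM in the early 2-cell libraries and at 863 and 828 FPKM in the late 2-cell control. H2az2 (chromosome 11, 6427229 to 6444443) went from 14.2 and 16.9 FPKM to 271 and 211 FPKM. In both genes every late library was above every early one by a wide margin. The log2 fold change, on the scale of log2(FPKM + 1) used throughout, was 4.30 ± 0.34 for H2az1 (SE, limma adjusted p = 6.81e-05) and 3.86 ± 0.31 for H2az2 (limma adjusted p = 5.05e-05). Both passed the threshold under each alternative setting and with any 1 library left out.

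Asf1a moved the other way. Its transcript (chromosome 10, 53596757 to 53609225) fell from 60.6 and 74.2 FPKM in early 2-cell embryos to 13.6 and 4.42 FPKM in the late 2-cell control. The fold change was -2.94 ± 0.86 on the log2 scale (limma adjusted p = 0.040). The libraries did not overlap, but the call lay close to the threshold. It was lost, with the direction kept, when any of these 4 libraries was left out (limma adjusted p 0.0552 to 0.208), with either library of 3 other columns left out (0.0511 to 0.0598), and under 3 of the other settings. Asf1a shares 1748 exon bases with Mcm9 on the opposite strand, and the strand of counting is not given in the sources used here. Mcm9 stood at 6.69 and 3.50 FPKM early and at 3.03 and 0.553 FPKM late, well below Asf1a in the early libraries, and did not pass (log2 -1.23 ± 0.72, limma adjusted p = 0.284).

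Its paralogue Asf1b (chromosome 8, 83955507 to 83970197) stood at 47.9 and 50.9 FPKM early and at 67.3 and 93.6 FPKM late, without overlap but with a log2 difference of 0.67 ± 0.50 that did not pass (limma adjusted p = 0.401). The order of the pair turned over between the stages. Asf1b over Asf1a was 0.789 and 0.686 in the early libraries and 4.96 and 21.2 in the late control libraries. The ratio lay above 1 in each of the 14 libraries after the early 2-cell stage, from 1.58 to 28.4. H2az1 over H2az2 was above 1 from the start, at 4.46 and 1.64 early and 3.19 and 3.93 late, which overlap.

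**Figure D1:**
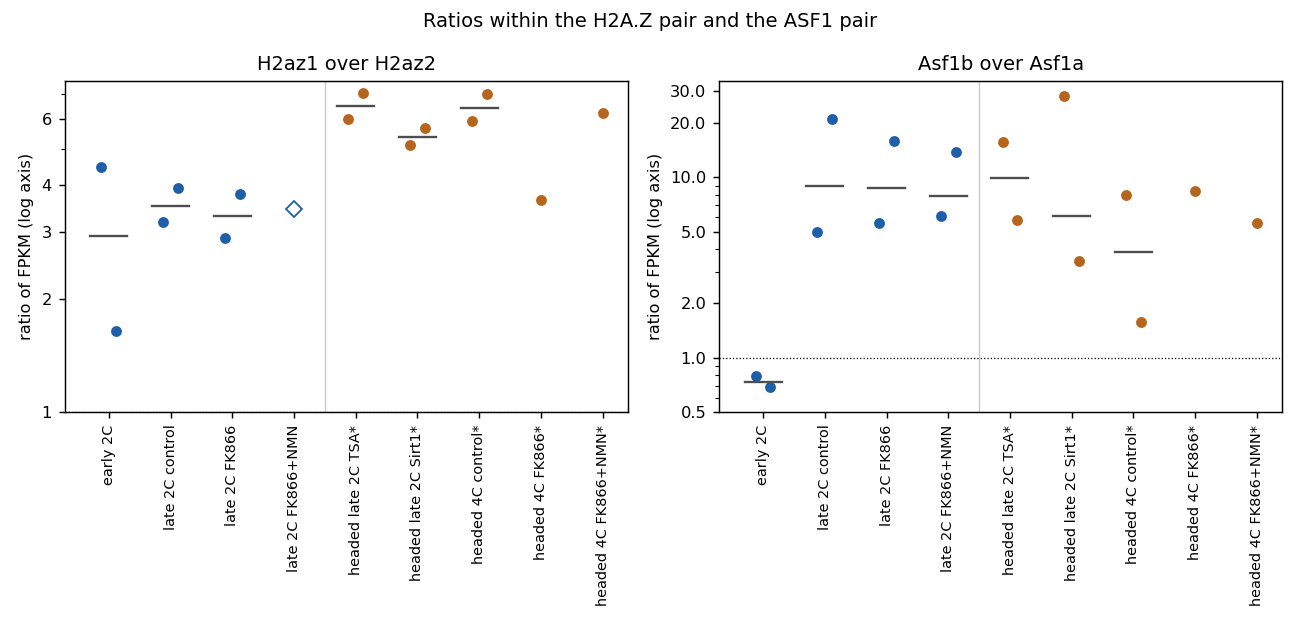
Ratio of FPKM (log axis) of H2az1 over H2az2 (left) and Asf1b over Asf1a (right) in each deposited column. Points are libraries, bars the ratio of column means, the open diamond a column whose libraries could not be separated, 2C and 4C the cell stage and stars the columns whose header and tables differ. Asf1b over Asf1a was below 1 in the early 2-cell libraries only, at 0.789 and 0.686.

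The remaining 6 genes did not pass between early and late 2-cell control. H3f3a (chromosome 1, 180800832 to 180813943) averaged 538 FPKM early, where its libraries had 5 possible separations and entered the fit as 1 mean value, and stood at 349 and 276 FPKM late (log2 -0.79 ± 0.39, limma adjusted p = 0.210). H1f8 (chromosome 6, 115944938 to 115950236) was at 245 and 390 FPKM early and 454 and 509 FPKM late, without overlap (log2 0.63 ± 1.13, limma adjusted p = 0.770). These levels put the oocyte linker histone above 99.4% of genes in the early column and 99.7% in the late control. H2aj (chromosome 6, 136808244 to 136810074) was at 7.46 and 5.29 FPKM early and at 17.5 and 18.6 FPKM late, without overlap, but missed the threshold (log2 1.38 ± 0.49, limma adjusted p = 0.081). H2ax (chromosome 9, 44334694 to 44336077) was at 2.43 and 3.58 FPKM early and at 1.99 and 19.6 FPKM late. One late library thus lay below both early ones and the other well above. Nasp (chromosome 4, 116601052 to 116627941) was at 53.2 and 71.2 FPKM early and at 58.9 and 37.3 FPKM late, which overlap. In all, 3 of 9 genes passed, where 17.0% of the 10628 genes tested did, with 2 of them up (8.91% of all genes) and 1 down (8.07%).

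**Figure D2:**
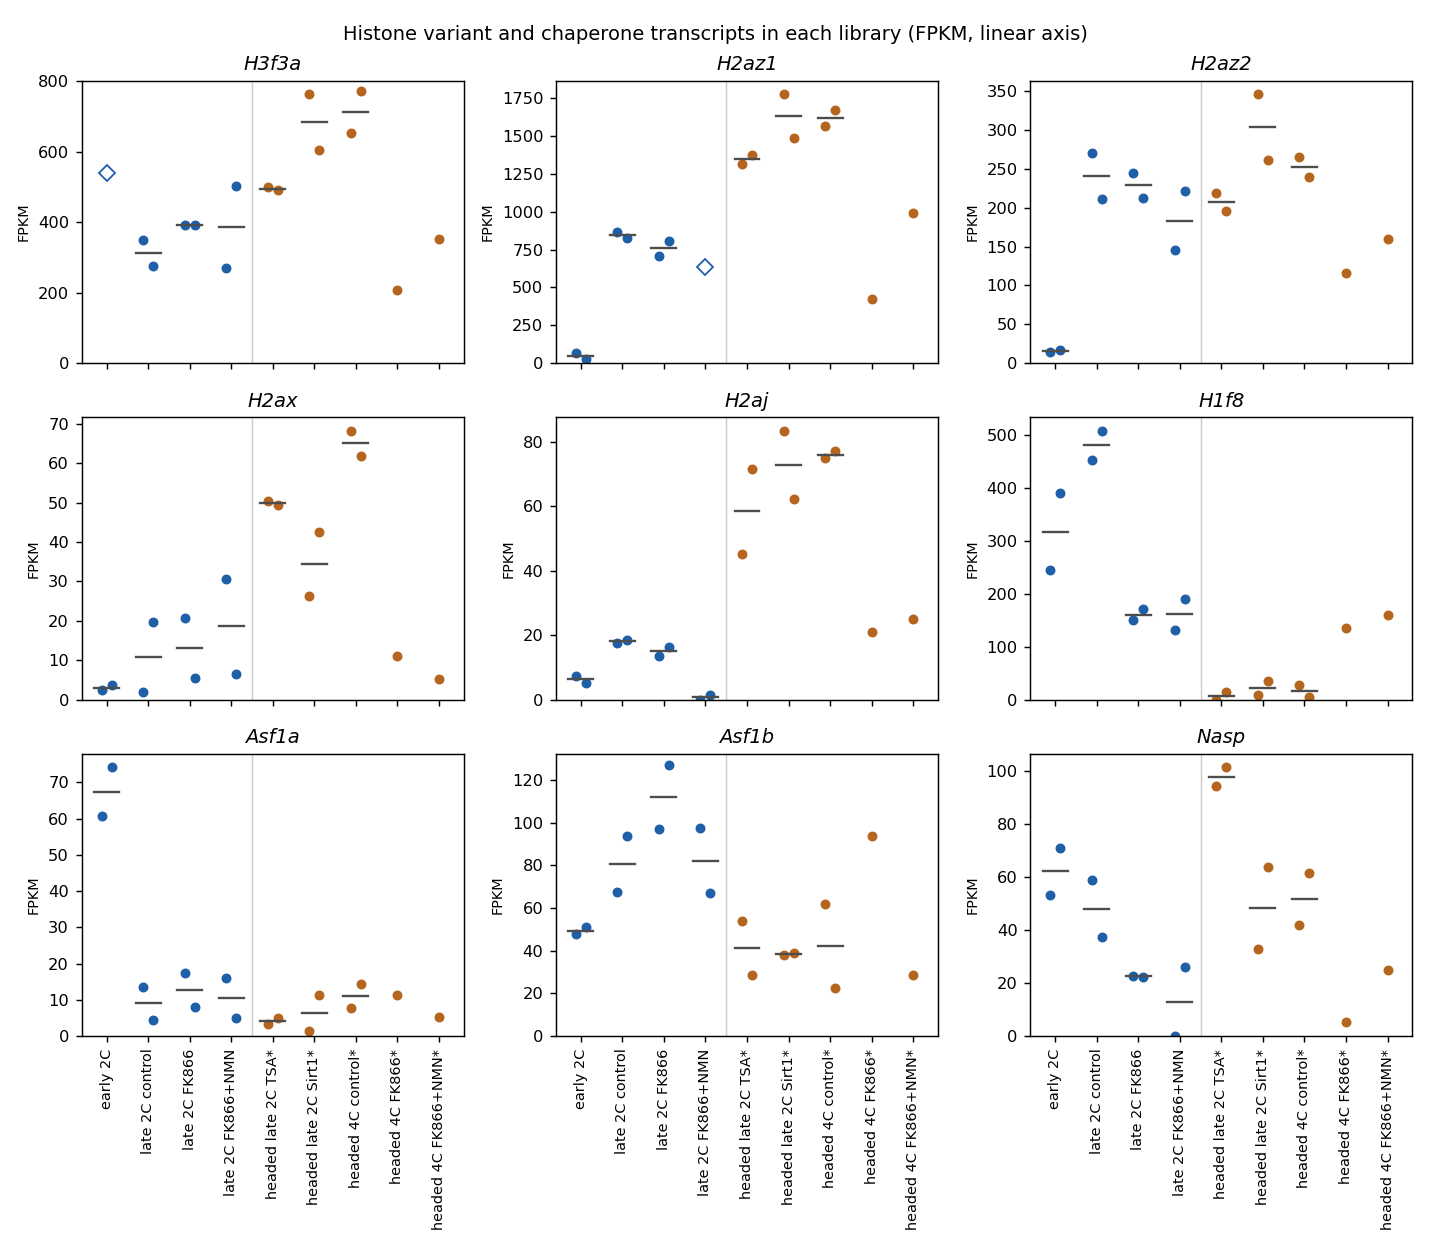
FPKM (linear axis, a scale for each gene) in each library of the deposited columns. Points are libraries, bars the mean of 2 libraries, open diamonds the mean of a column that could not be separated, blue the columns whose header no table contradicts (early 2-cell is in none), and brown with stars those where they differ. H2az1 and H2az2 were lowest in early 2-cell embryos and Asf1a was highest there, while H1f8 stayed at or below 36.0 FPKM in the first 3 starred columns.

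FK866 changed none of the 9 transcripts past the threshold at the late 2-cell stage. Over all rows tested 0.32% of genes were called by limma (34 of 10628, 886 at an unadjusted p under 0.05), and none of the 9 reached an unadjusted p under 0.05. The largest difference was in H1f8, at 151 and 171 FPKM with FK866 against 454 and 509 FPKM in the control. Both treated libraries were below both controls, by 2.98-fold on the log2(FPKM + 1) scale. With its standard error, -1.58 ± 1.13, the limma adjusted p was 0.717, and in a fit on the uncontested columns alone the error was 0.33 and the adjusted p 0.214. Nasp was at 22.7 and 22.3 FPKM, also below both controls at 58.9 and 37.3 FPKM (log2 -1.03 ± 1.09, limma adjusted p = 0.853). H2az1 with 710 and 806 FPKM and H2az2 with 245 and 213 FPKM differed from the control by -0.16 ± 0.34 and -0.06 ± 0.31, far less than their rise between stages. H3f3a was at 391 in both libraries, Asf1b at 97.0 and 127, Asf1a at 17.5 and 8.05, H2aj at 13.6 and 16.5 and H2ax at 20.6 and 5.51 FPKM, with log2 differences of -0.25 to 0.60.

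With NMN added to FK866, H2aj was nearly lost from the libraries. Library A held 0 reads of it, which allows up to 0.194 FPKM (3 reads, counting error only), and library B held 14 reads, or 1.43 FPKM. FK866 alone had 224 and 245 reads, 13.6 and 16.5 FPKM, and the control 17.5 and 18.6 FPKM. The difference was -3.36 ± 0.49 over FK866 (limma adjusted p = 0.00917) and -3.61 ± 0.49 over control (limma adjusted p = 0.00477). H2aj was the 1 gene of 9 that passed in either comparison, where 2.3% of all genes were called over FK866 and 4.08% over control. Neither call was kept in a fit on the 8 libraries of the uncontested columns (adjusted p = 0.126 and 0.0744), and the first was lost with centring on the median (log2 -2.05, adjusted p = 0.0568). Centring moved the median of all genes over FK866 from -0.20 to 1.11 and the share of higher genes among those called from 12.3% to 89.0%. Under it 6 of the 9 genes turned from lower to higher over FK866, and H2aj and Nasp stayed lower.

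Nasp shows how far the FK866+NMN libraries were apart. Library A held 8 reads (0.126 FPKM) and library B 1042 reads (25.9 FPKM), against 22.7 and 22.3 FPKM with FK866 alone. The mean difference over control was -3.12 ± 1.09 (limma adjusted p = 0.146), which was -5.41 (adjusted p = 0.000307) without library B and -0.83 (adjusted p = 0.398) without library A. H2ax was at 30.7 and 6.48 FPKM, but its spread was not particular to this column. On the log2(FPKM + 1) scale it was 4.24-fold here, 6.88-fold in the control and 3.32-fold with FK866 alone. H1f8 at 131 and 191 FPKM overlapped FK866 alone and lay below both controls. The other genes of this column, H3f3a at 270 and 503, H2az2 at 145 and 222, Asf1a at 16.1 and 4.83 and Asf1b at 97.6 and 66.9 FPKM, overlapped FK866 alone. H2az1 averaged 636 FPKM, with 2 possible separations of its reads.

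**Figure D3:**
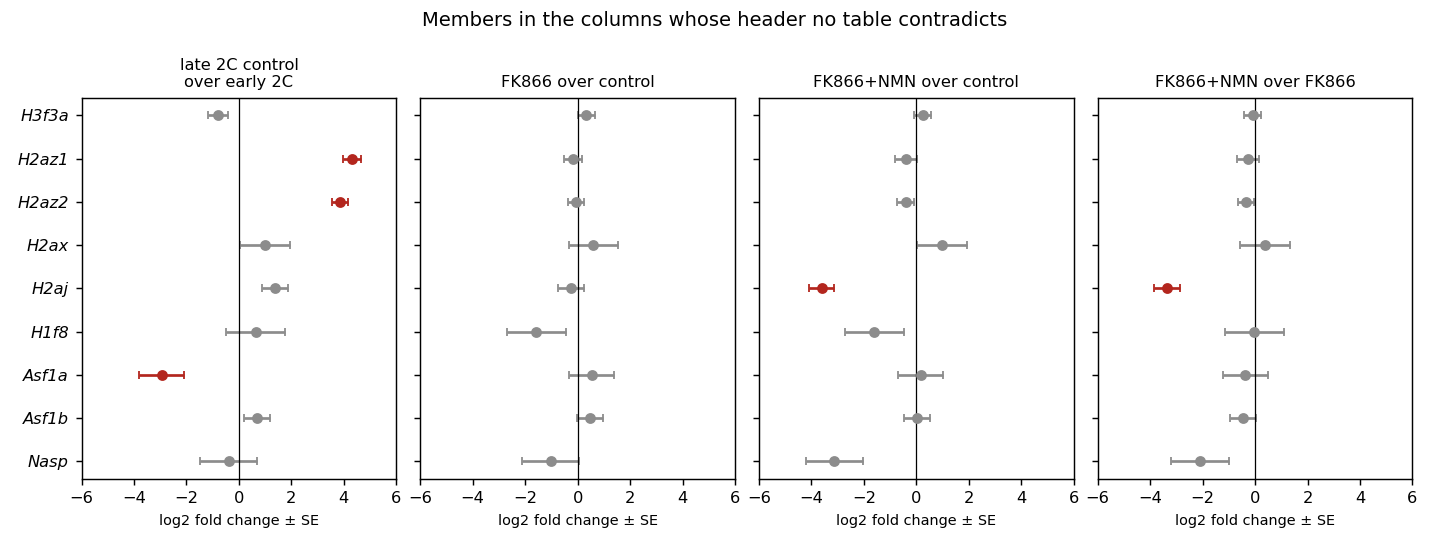
Log2 fold change of each gene, on the log2(FPKM + 1) scale, in the comparisons among uncontested columns. Bars are standard errors from limma, red points passed an adjusted p of 0.05 and grey points did not. H2az1 and H2az2 rose and Asf1a fell between stages, no gene passed for FK866, and H2aj passed in both comparisons of FK866+NMN.

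The columns headed late 2-cell TSA, late 2-cell Sirt1 and 4-cell control shared one pattern, read as 3 treatments and stages by their headers and as 4-cell control, FK866 and FK866+NMN by the tables. H1f8 was much lower. It had 0 reads (up to 0.364 FPKM for 3 reads) and 13.9 FPKM in the column headed TSA, 9.49 and 36.0 FPKM in the one headed Sirt1, and 27.2 and 4.30 FPKM in the one headed 4-cell control, against 454 and 509 FPKM in the late 2-cell control. The differences were -6.96 ± 1.13, -4.61 ± 1.13 and -5.30 ± 1.13 (limma adjusted p = 0.00308, 0.0274 and 0.0183). By the tables these are losses from the late 2-cell to the 4-cell stage with and without FK866, and by the headers the first is a TSA effect and the second a Sirt1 effect. The columns are compared with the same 2 control libraries and are not independent. Of the 9 oocyte and cleavage embryo markers 7 had lower means, as H1f8 did, in all 3 columns. In the order TSA, Sirt1 and 4-cell control, Nlrp14 was at 2.66, 18.0 and 26.6 FPKM against 144 in the late 2-cell control, Padi6 at 3.29, 20.5 and 24.5 against 67.7, and Tle6 at 5.00, 19.8 and 6.54 against 76.3. Zp2 was at 1.32 to 8.14 FPKM against 37.1, Nlrp5 at 0.617 to 5.40 against 26.0, and Ooep at 0 to 2.50 against 26.8. Dppa3 was higher, at 3256 to 3654 against 2058 FPKM, Zp3 lower at 30.1 to 51.4 against 54.9 FPKM, and Khdc3 at 4.26 to 13.9 against 4.19 FPKM. These are column means with no test.

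H2aj was higher in the same 3 columns. It stood at 45.2 and 71.8, at 83.5 and 62.4 and at 75.0 and 77.2 FPKM, all above the controls at 17.5 and 18.6 FPKM. The log2 differences were 1.61 ± 0.49, 1.94 ± 0.49 and 2.02 ± 0.49 (limma adjusted p = 0.0555, 0.0311 and 0.0313), so that 2 of the 3 passed. H2ax was also above both controls there, from 26.3 FPKM in library A of the column headed Sirt1 to 68.3 FPKM in library A of the one headed 4-cell control, and missed the threshold each time (limma adjusted p 0.0751 to 0.198). H3f3a, at 490 to 772 FPKM against 349 and 276, came near it in the columns headed Sirt1 and 4-cell control (limma adjusted p = 0.0535 and 0.0512). H2az1 ranged from 1314 to 1776 FPKM in these 6 libraries, above both controls, and H2az2 from 196 to 347 FPKM, overlapping them. The ratio of H2az1 over H2az2 was therefore 5.13 to 7.03 in them, above the 2.90 to 3.93 of the separated late 2-cell control and FK866 libraries. It was not particular to these columns, as the 1 library headed 4-cell FK866+NMN had 6.23. The 1 library headed 4-cell FK866 had 3.65. Asf1b, at 22.7 to 62.0 FPKM, was below both controls in all 6. Asf1a (1.35 to 14.4 FPKM) overlapped the controls, and Nasp (33.0 to 102 FPKM) did so except in the column headed TSA, at 94.4 and 102 FPKM.

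The background for these comparisons with the late 2-cell control was high. Of 10628 genes 13.6% were called in the column headed TSA, 10.7% in the one headed Sirt1 and 8.21% in the one headed 4-cell control, beside 1, 2 and 2 of the 9 genes. The calls of H1f8 and H2aj in the columns headed Sirt1 and 4-cell control were lost with a pseudocount of 0.1 FPKM (adjusted p 0.116 to 0.292), with the directions kept. All 4 calls were also lost with either control library left out (adjusted p 0.0774 to 0.113). Leaving out either library of its own column ended each call (adjusted p 0.0519 to 0.179), except that H1f8 was kept without library A of the column headed 4-cell control. The H1f8 call in the column headed Sirt1 was lost without either early 2-cell library as well (adjusted p = 0.0574 and 0.0581). H1f8 in the column headed TSA was kept without any 1 library (adjusted p 0.0014 to 0.0255).

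The 1-library columns are described by where the library lay against the 2 late 2-cell control libraries. A single library often falls outside the range of 2 others, and the share of all genes that did so was not computed. In the column headed 4-cell FK866 (TSA by the tables) H3f3a was at 207, H2az1 at 422, H2az2 at 116 and Nasp at 5.26 FPKM, each below both late 2-cell controls, and Asf1b at 93.7 and H2aj at 20.9 FPKM just above both. H1f8, at 135 FPKM, was below both controls too, while Asf1a at 11.2 and H2ax at 11.1 FPKM lay between them. The library also held the most Hba-a1, a globin transcript of blood cells, at 130 FPKM against 0 to 20.0 FPKM in the other columns, with the leukocyte marker Ptprc at 0. Its 7 cumulus and granulosa markers summed to 11.9 FPKM with 4 at 0, the highest being Cyp19a1 at 8.12 and Vim at 3.51 FPKM. The part of these cells in its values was not tested. In the column headed 4-cell FK866+NMN (Sirt1 knockdown by the tables) H1f8 was at 159, Asf1b at 28.8, H2az2 at 160 and Nasp at 25.1 FPKM, below both controls. H2az1 was at 994, H3f3a at 351 and H2aj at 25.0 FPKM, above both, while Asf1a at 5.17 and H2ax at 5.13 FPKM lay between them. With 1 library each, and its spread taken from the other columns, none of the 9 genes passed in either column over the late 2-cell control. Of all genes 6.44% and 0.48% did. At an unadjusted p under 0.05 it was 2 and 1 of the 9, beside 2172 and 946 of 10628 genes.

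**Figure D4:**
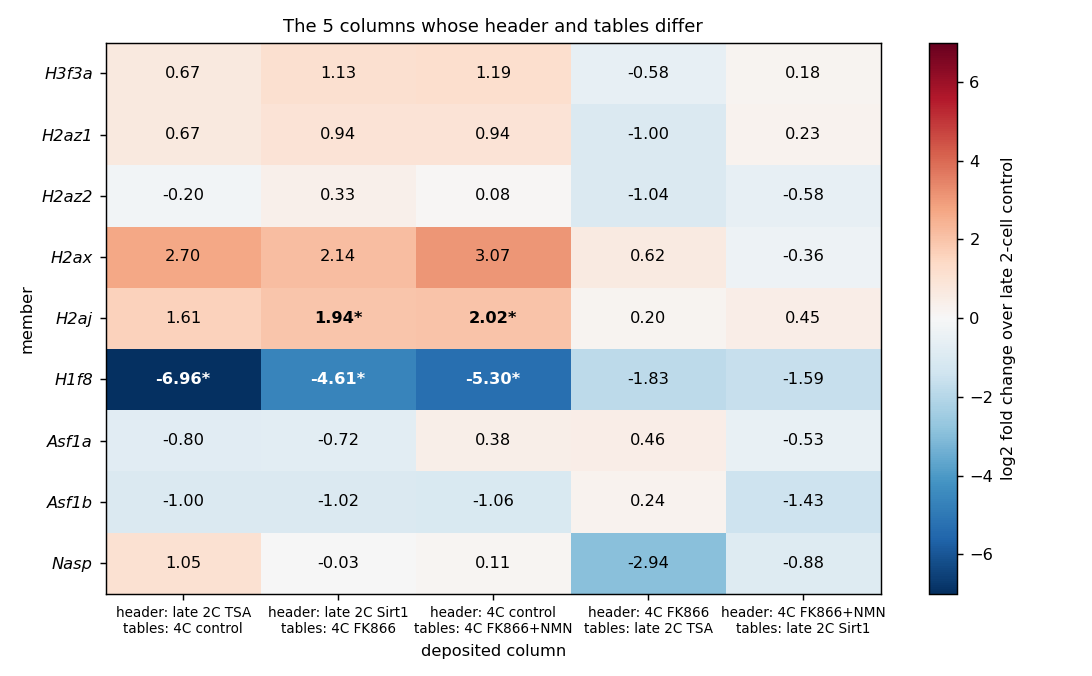
Log2 fold change over the late 2-cell control (colour and number, log2(FPKM + 1) scale) for each gene in the columns whose header and tables differ, with both readings under each column. Stars and bold mark an adjusted p under 0.05 by limma. H1f8 passed in the first 3 columns, at -6.96, -4.61 and -5.30, and H2aj in those headed Sirt1 and 4-cell control, at 1.94 and 2.02, and no gene passed in the last columns, which hold 1 library each.

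How FK866 acted on these genes at the 4-cell stage depends on the reading. By the headers the FK866 group is 1 library, so its tests rest on the spread within other columns and it has no replicate check. H3f3a was then at 207 FPKM against 653 and 772 FPKM in the 4-cell control (log2 -1.77 ± 0.39, limma adjusted p = 0.0127), and H2az1 at 422 against 1570 and 1674 FPKM (log2 -1.94 ± 0.42, limma adjusted p = 0.0119). These were 2 of 9 genes beside 20.8% of all genes, and both calls were lost with library B of the column headed 4-cell control left out (adjusted p = 0.0646 and 0.0576). By the tables H3f3a was at 764 and 605 FPKM with FK866 against 499 and 490 FPKM (log2 0.46 ± 0.32), and H2az1 at 1776 and 1486 against 1314 and 1378 FPKM (log2 0.27 ± 0.34). Both were then higher rather than lower, neither passed, and 0.141% of all genes were called by limma (15 of 10628, 648 at an unadjusted p under 0.05, none of them among the 9). For NMN added to FK866 at the 4-cell stage none of the 9 genes passed by either reading in limma, beside 3.33% of genes by the headers and 0.0847% by the tables. At an unadjusted p under 0.05 it was 2 and 0 of the 9, beside 1884 and 371 of 10628 genes. By the tables H2aj was then at 75.0 and 77.2 FPKM with NMN and at 83.5 and 62.4 FPKM without, which overlap. The difference between this NMN effect and the one at the late 2-cell stage was 3.43 ± 0.69 on the log2 scale and missed the threshold (limma adjusted p = 0.0910).

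The machinery around these genes was followed with a list of 57 genes, of which 33 are among the rows and all 33 were tested. H3f3b, Hira, Daxx, Atrx, Chaf1a and Chaf1b are among those without a row. The rows cover chromosomes 1 to 11 only, with 377 genes on chromosome 11 against 1233 to 2082 on each of the others. Chromosome 11 is thus covered in part, and a missing row does not mean that a gene was not expressed. Between early and late 2-cell control 7 rose and 3 fell (median log2 0.05, all genes 0.00), and 17.0% of all genes were called. Of 5 listed genes of CENP-A deposition, which builds centromeric chromatin, 3 have rows and all 3 rose. Hjurp did so close to the threshold (log2 1.96 ± 0.60, limma adjusted p = 0.0489). Oip5, part of the Mis18 complex that licenses it, went from 0.0499 to 38.7 FPKM on average (log2 5.22 ± 0.92, limma adjusted p = 0.00345). Of 12 genes for H2A.Z deposition and removal 1 rose and 1 fell. The one that rose was Ruvbl1, an ATPase of the SRCAP, TIP60 and INO80 complexes, from 6.37 to 150 FPKM (log2 4.39 ± 0.65, limma adjusted p = 0.00126). The one that fell was Ruvbl2, from 37.4 to 6.97 FPKM (log2 -2.38 ± 0.65, limma adjusted p = 0.0294). Set, a chaperone that binds histone tails, went from 10.96 to 218 FPKM (log2 4.19 ± 0.38, limma adjusted p = 7.72e-05). Slbp, which binds the stem-loop of canonical histone transcripts, fell from 341 to 46.9 FPKM (log2 -2.86 ± 0.42, limma adjusted p = 0.00113). Oip5, Ruvbl1, Set and Slbp had the 4 largest changes among the genes of the list that passed, and the 9 genes themselves are not part of it.

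None of the 33 passed in limma at the late 2-cell stage for FK866 over control, FK866+NMN over FK866 or FK866+NMN over control. Of all genes 0.32%, 2.3% and 4.08% were called there. At an unadjusted p under 0.05 it was 3, 6 and 8 of the 33, beside 886, 1539 and 1920 of 10628 genes. None passed in the columns headed late 2-cell Sirt1, 4-cell control and 4-cell FK866+NMN over the late 2-cell control either. There 10.7%, 8.21% and 0.48% of all genes were called. At an unadjusted p under 0.05 it was 7, 3 and 0 of the 33, beside 2532, 2352 and 946 of 10628 genes. In the column headed TSA, where 13.6% of all genes were called, 2 of 33 passed. Npm1, a chaperone of the nucleolus, was higher at 1209 against 280 FPKM (log2 2.09 ± 0.46, limma adjusted p = 0.0147) and Ep400, an ATPase that deposits H2A.Z, lower at 4.43 against 16.9 FPKM (log2 -1.74 ± 0.46, limma adjusted p = 0.0320). The next values come from single libraries, whose tests take their spread from the other columns and have no replicate check. In the library headed 4-cell FK866, the one with the most Hba-a1, Ino80 was lower at 0.753 against 18.9 FPKM (log2 -3.51 ± 0.54, limma adjusted p = 0.00483). So was Cdan1, which binds ASF1, at 0.0187 against 6.11 FPKM (log2 -2.79 ± 0.66, limma adjusted p = 0.0327), so that 2 of 33 passed beside 6.44% of all genes. That library against the column headed 4-cell control gave 1 higher and 6 lower of 33, near the 20.8% of all genes called there, among them Actr6, a subunit of the SRCAP complex, and Dmap1, shared by SRCAP and TIP60. Both were listed at 0 in that library, and at 25.5 and 9.50 FPKM in the column headed 4-cell control. The single library headed 4-cell FK866+NMN gave Cdan1 at 9.85 FPKM and Ino80 at 12.3 FPKM, and 2 of 33 passed between these 2 unreplicated libraries, beside 3.33% of all genes.

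Levels over the 9 columns were also compared between genes, as a description with 9 points that share libraries and stages. H2az1 and H2az2 went together (Pearson r = 0.97 of log2(FPKM per library + 1)), and Asf1a went against H2az1 (r = -0.91), while H1f8 went against H2ax (r = -0.86). The early 2-cell column was the lowest of the 9 for both H2A.Z genes and the highest for Asf1a. Among 4751 genes with a mean of at least 5 FPKM, the patterns most like H2az1 were those of Ddx20 and Purb (both r = 0.99) and most like H2az2 those of Fcgr3 and Usp50 (both r = 0.99). Those nearest H2aj were Rpl38-ps2 and Wdr73 (both r = 0.99), nearest H1f8 Mgst3 (r = 0.98) and Coq10b (r = 0.97), and nearest H2ax Xpot (r = 0.97) and Tprn (r = 0.96). For Nasp they were Gm12112 (r = 0.97) and Nup107 (r = 0.96), for Asf1a Eif1b (r = 0.95) and Gm8723 (r = 0.94), for H3f3a Gm12657 (r = 0.95) and Pcbp1 (r = 0.94), and for Asf1b Cep68 (r = 0.93) and Tomm34 (r = 0.92). The number of genes with r above 0.9 was 227 for H2az1 and 249 for H1f8 but 3 for Asf1b.

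Between genes the levels, which are per kilobase of exon, spanned a wide range that was partly kept across columns. H2az1 had the highest value of the 9 in each column but the early one, where H3f3a led with 538 FPKM and H1f8 followed with 318 FPKM. In the late 2-cell control the order was H2az1 (846 FPKM), H1f8 (481), H3f3a (313) and H2az2 (241), then Asf1b (80.4), Nasp (48.1), H2aj (18.1), H2ax (10.8) and Asf1a (8.99). The libraries of neighbours did not overlap among the first 3, while H3f3a at its lower library (276) and H2az2 at its higher (271) were nearly level, and Nasp did not overlap Asf1b or H2aj. H2aj, H2ax and Asf1a could not be ordered beyond their spread, except that both H2aj libraries lay above both Asf1a libraries. H3f3a and Nasp have processed pseudogenes named for them in the annotation (2 and 1), which are not among the rows, and how reads shared with them were counted is not given in the sources used here. H3f3a also overlaps antisense genes of its locus (638 and 160 exon bases), and H2ax and H2aj each share 141 bases with a miRNA gene on the opposite strand.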

How the data were processed

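RNA-seq was available for 18 samples of mouse embryos. The 24 CUT&Tag samples for H3K27ac were left out as no measure of transcripts. Per the methods the authors trimmed reads with Trim Galore after FastQC, aligned them with HISAT2 to mm10, counted with featureCounts and tested with DESeq2. The submitters' processing notes name CASAVA 1.4, HISAT2 and mm10. The deposited table holds FPKM with 1 column per group, although it is named for counts, and the strand of counting is not given in the sources used here. It covers 15748 rows on chromosomes 1 to 11, the last of them in part, and no column was left unused. The design assumed that the table might hold counts, and the test for FPKM was used instead.

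Each FPKM times the union exon length of its gene (GENCODE M21) was a sum of whole reads over the totals of 1 or 2 libraries, and was separated into reads per library. Of the 15737 symbols found once, 15547 had a length, 191 of them by an older symbol, and 97.6% to 97.8% of values came out as whole reads. Totals ran from 3169677 to 10003481 reads. The 138 values with more than 1 solution entered as the column mean, as 1 value. Intervals and floors (3 reads) cover counting error only.

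limma 3.58.1 in R 4.3.3 was fitted to log2(FPKM + 1) of 16 libraries in 9 groups by column header (7 residual degrees of freedom) with a mean-variance trend, for genes at 1 FPKM or more in at least 2 libraries. Genes with a Benjamini-Hochberg adjusted p under 0.05 over 10628 genes were called. With 2 libraries against 2 an exact permutation test cannot go below p = 0.333, so none is given. Columns with 1 library took their spread from the others. On data simulated for the late against early 2-cell comparison (9790 genes), 71 of 100 genes raised 8-fold, 45 of 100 lowered 8-fold and 11 of 9590 unchanged genes were called. Python 3.11.15 and pandas 2.3.3 were used for the rest.

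Named were the 9 genes, in each comparison up to 4 called genes of a 57-gene list with the largest change, per gene the 2 with the most similar pattern, and Sirt1 as the targeted gene. Mcm9 was added for its overlap with Asf1a, after its values were seen. Hjurp and Ruvbl2, called genes of the list outside the 4 largest changes, were also added after their values were seen. The members and lists were chosen with earlier results of these data known. Marker lists covered oocyte and cleavage embryo, cumulus and granulosa, blood (Hba-a1 and Ptprc) and sperm, whose 1 marker, Tnp1, was not used here. Alternatives were other pseudocounts, other filters, centring on the median, leaving out each library, the columns as the tables read them, and, chosen after seeing the data, a fit on the uncontested columns. Columns of the authors' own comparisons were used only to see which group a column holds.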

Additional observations from a re-analysis of the deposited data

Results flagged for a closer look

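The effect of FK866 on H3f3a differed between stages when columns were read by their headers. The log2 difference, 4-cell effect less late 2-cell effect, was -2.10 ± 0.50 (limma adjusted p = 0.0368), where 8.3% of all genes passed the same test. It is made of an effect of -1.77 at the 4-cell stage, from 1 treated library with its spread taken from other columns, and of 0.33 at the late 2-cell stage. With the columns read by the tables the difference was 0.13 ± 0.45 (limma adjusted p = 0.992), and no gene of the table passed by limma (0 of 10628).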

How the results depend on the processing

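No paired analysis was possible because the columns carry no replicate numbers. The rises of H2az1 (4.30, range 3.71 to 4.88 without 1 library) and H2az2 (3.86, range 3.68 to 4.04) passed under every alternative run. H1f8 in the column headed TSA passed in every fit that held this column. By the tables the TSA group is another column, the 1-library column headed 4-cell FK866, where H1f8 differed from the late 2-cell control by -1.83. Of the 9 genes, the number called changed as follows. For FK866+NMN over FK866 it went from 1 to 0 with centring and 0 with the uncontested columns alone, and over control from 1 to 2 and 0. Over the late 2-cell control, the column headed TSA went from 1 to 2 with a pseudocount of 5 FPKM, 2 with a filter of 5 FPKM and 5 with centring. The column headed Sirt1 went from 2 to 0 with a pseudocount of 0.1 FPKM, 1 with no filter and 4 with centring. The column headed 4-cell control went from 2 to 0 with 0.1 FPKM and 4 with 5 FPKM. Reading by the tables leaves the count of each column as it is and gives the group name to another column. The TSA group then had 0 in place of 1, the Sirt1 group 0 in place of 2 and the 4-cell control 1 in place of 2. The 4-cell FK866 and 4-cell FK866+NMN groups each had 2 in place of 0. FK866 over 4-cell control by header went from 2 to 5 with 5 FPKM, 5 with centring and 0 by the tables, where H3f3a turned to 0.46 and H2az1 to 0.27. The cause was not tested, beyond that the tables name other libraries for these groups.

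Without 1 library the number called ranged from 2 to 4 for late over early 2-cell, 0 to 0 for FK866, 1 to 2 for FK866+NMN over FK866 and over control, 1 to 2, 0 to 3, 0 to 4, 0 to 1 and 0 to 0 for the columns headed TSA, Sirt1, 4-cell control, 4-cell FK866 and 4-cell FK866+NMN over the late 2-cell control, 0 to 5 for FK866 over 4-cell control by header, 0 to 1 for the last 2 columns against each other, and 0 to 0 for the same steps by the tables. For FK866 at the late 2-cell stage H2ax ranged from -0.80 to 1.99, H2az2 from -0.24 to 0.12 and Asf1a from -0.17 to 1.25. Of 96 other fold changes, 21 of 502 values under other settings and 43 of 1490 without 1 library changed sign. Centring moved the median of all genes by over 0.1 in most comparisons, from -0.24 to 1.08 for FK866+NMN over control (share of higher genes among those called 15.7% to 88.0%) and from -0.06 to 0.88 in the column headed TSA (32.1% to 70.5%). In the columns headed Sirt1, 4-cell control and 4-cell FK866 over the late 2-cell control the median went to 0.51, 0.36 and -0.28 and that share from 33.7% to 56.7%, from 34.6% to 48.2% and from 60.5% to 40.7%. Against each other by header, FK866 over 4-cell control went from 60.5% to 32.8% and the last 2 columns from 37.9% to 70.5%. Of all genes, 34 were called for FK866 over control at the late 2-cell stage and 0 with centring. With 2 libraries a group, 45 of 100 genes lowered 8-fold were called in the simulation, so differences of this size can be missed. Its rates are for late against early 2-cell only, with the same noise in every library. They do not cover the FK866+NMN column, whose libraries differed by a median of 2.70-fold, or the 1-library columns.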
